A study of Mus musculus with 22 samples.

Results

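The DEAD and DEAH box RNA helicases were taken as every gene whose symbol starts with Ddx or Dhx followed by a digit. This gave 52 of 15705 genes in the 6-month table (36 Ddx and 16 Dhx) and 51 of 15192 genes in the 12-month table (35 Ddx and 16 Dhx), with 51 in both. Ddx39b matched at 6 months only, because the 12-month table lists that gene under its older symbol Bat1a. Ddx3y matched in neither table. All members had a value above 0 in every library, and no member was removed by a filter.

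The measurements are splicing deficiency scores (Sd scores) from mouse cortex, sequenced as poly(A)-selected, stranded RNA. At 6 months, 4 groups of littermates with 3 libraries each came from matings of hemizygous N40K-Tg mice with hemizygous FAD mice: wild type (WT), carriers of N40K alone, carriers of 5xFAD alone, and dTg mice with both sets of transgenes. N40K mice express a truncated U1-70K that keeps its N-terminal part. U1-70K belongs to the U1 snRNP, the particle that recognises 5′ splice sites. The 5xFAD mice express mutant human amyloid precursor protein and presenilin 1. At 12 months, 4 WT libraries and 6 Tau P301S libraries came from matings of Tau P301S carriers with WT mice, and Tau P301S mice express a mutant human tau. Which promoters drive the transgenes, and from which founder lines, is not given in the sources used here, and the labels do not say whether a library is 1 animal, so the p-values measure the spread between libraries.

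The Sd score is a ratio within each gene, taken here to rise with the share of unspliced signal, and it was deposited with 3 decimals. It is not a transcript level, so a high score says nothing of how abundant a helicase was. Cortex is a mixed tissue, and a change in which cells supply a gene's RNA cannot be told apart from a change in splicing within a cell, just as fewer cells of a type cannot be told apart from less RNA per cell. The tissue was checked only by whether cell type markers had a row, since the tables hold no expression levels: 16 of 21 did at 6 months (not Mbp, Mag, Cx3cr1, Tmem119 or Cldn5) and 20 of 21 at 12 months (not Cldn5). The median score of a library over all genes ranged from 0.029 to 0.036 at 6 months and from 0.013 to 0.017 at 12 months. The 6-month maximum was in N40K replicate 1 (0.036), followed by dTg replicate 2 (0.035), and WT replicates 1 and 2 (0.013 each) had the lowest at 12 months. Read depth per library was not given in the sources used here.

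DEAD and DEAH box proteins use ATP to unwind short RNA duplexes or to strip proteins from RNA, and they act at nearly every step of an RNA's life. Several drive the spliceosome from one state to the next, among them the helicase that displaces U1 from the 5′ splice site (Ddx23) and the one that helps U2 bind the branch site (Ddx46). Others work in mRNA export, translation and decay, ribosome assembly, or the sensing of viral RNA. Genes for RNA-binding and RNA-processing proteins are known for introns that remain in polyadenylated transcripts.

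Scores of the helicases spanned a wide range in WT cortex. At 6 months the WT mean ran from 0.002 in Ddx6 to 0.302 in Ddx51, a 151-fold span, with a median over members of 0.0213 against 0.0297 over all genes. The 3 highest were Ddx51 (0.302 ± 0.0203, SD, n = 3), a factor of large-subunit ribosome assembly, Ddx5 (0.245 ± 0.00289), a coregulator of transcription and splicing, and Dhx58 (0.225 ± 0.00551), which encodes the RNA sensor LGP2. Their library ranges in WT were 0.286 to 0.325, 0.243 to 0.248 and 0.221 to 0.231, so Ddx51 lay above Ddx5, and Ddx5 above Dhx58, in every WT library. The next were Ddx41 (0.151), Ddx20 (0.141), Ddx17 (0.135) and Ddx39 (0.124), whose neighbours in this order overlapped between libraries except where Ddx41 met Ddx20.

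The lowest WT means at 6 months were those of Ddx6 (0.002 in all 3 libraries), Ddx10 (0.003 in all 3) and Ddx4 (0.006 ± 0.001), the germline helicase Vasa. In Ddx6 and Ddx10 a single step of the last decimal, 0.001, is a large part of the value. Above 0.1 stood 7 members, 13.5% of them, against 23.3% of all genes. Below 0.01 stood 5 members, 9.62% of them, against 24.8% of all genes, so the helicases were fewer at both ends of the range. Over the members, the median coefficient of variation between WT libraries was 5.93% at 6 months and 14.2% at 12 months.

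By role, the 6-month WT medians were highest for the 5 coregulators and RNA processing factors (0.135, range 0.01 to 0.245). The median was 0.0335 for the 16 ribosome biogenesis helicases (0.003 to 0.302), 0.0307 for the 5 mRNA export helicases (0.01 to 0.124) and 0.0293 for the 3 antiviral sensors (0.0217 to 0.225). It was 0.0158 for the 6 translation and decay helicases (0.002 to 0.0493) and 0.0145 for the 10 spliceosomal helicases (0.00967 to 0.151). Within the spliceosomal group, Ddx41, Dhx16 (0.0703), which remodels the spliceosome before the first catalytic step, and Dhx38 (0.038), which acts before the second, stood above the other 7. Those 7, which include Ddx23, Dhx15, Dhx8 and Ddx46, lay between 0.00967 and 0.0153.

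**Figure D1:**
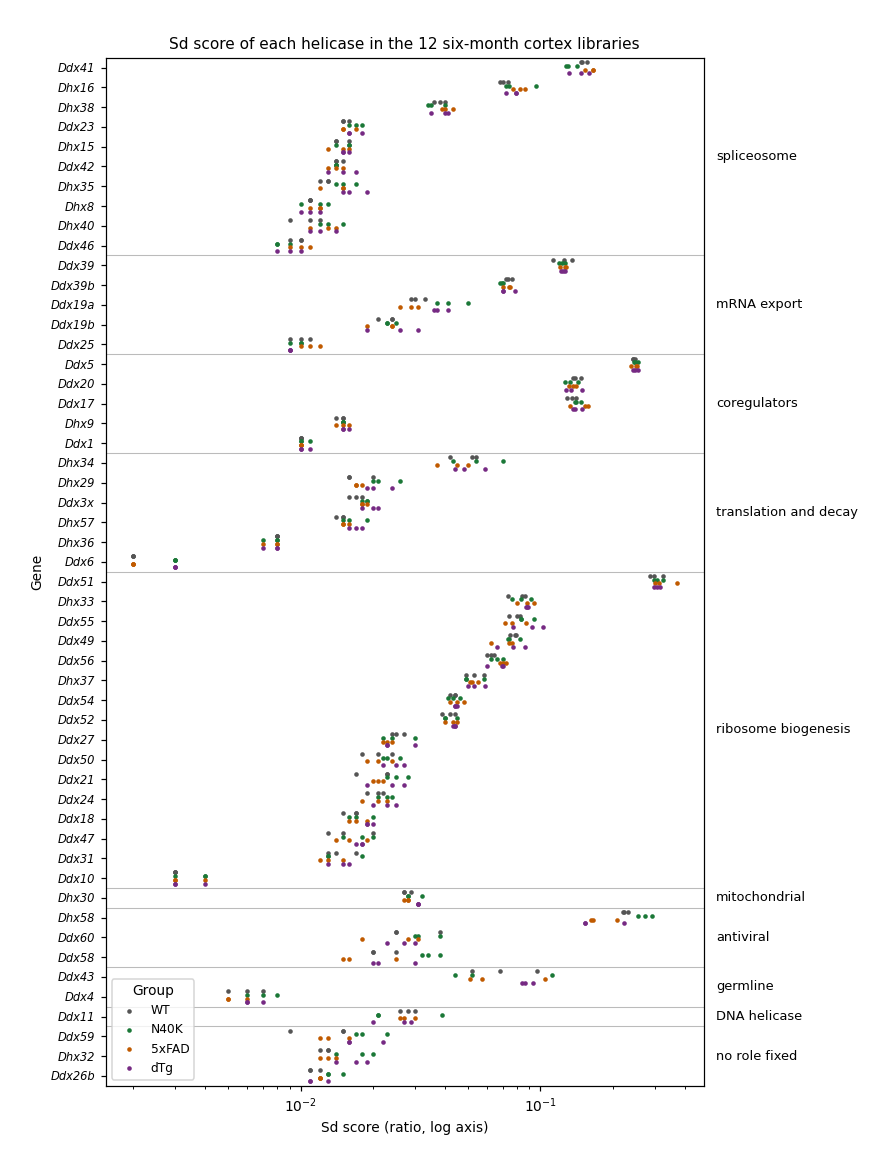
Each point is the Sd score (a ratio, log axis) of 1 helicase gene in 1 of the 12 libraries of 6-month cortex, coloured by group (3 libraries each) and ordered by role and WT mean. Differences between genes, from 0.002 in Ddx6 to 0.302 in Ddx51, exceed the differences between groups within a gene.

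The score was lower in genes with longer introns. Intron lengths were summed from GENCODE M21 by Ensembl identifier, for all 52 members and for 14914 (95%) of all genes. Across the 52 genes the WT score and the summed intron length had a Spearman correlation of −0.74, against −0.63 across all genes with a model. These points share libraries and genes are not independent replicates, so the value is a description. Members and all genes had similar medians of intron length (20.1 and 20.7 kb).

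The 4 members with the shortest introns all had scores above 0.1: Ddx51 had 1.8 kb of intron, Ddx5 3.06 kb, Ddx41 3.56 kb and Ddx20 5.16 kb. At the other end Ddx10, with 146 kb of intron, had the score of 0.003. Some genes stood off this line. Ddx47 (5.51 kb, score 0.016), a ribosome biogenesis helicase, and Ddx3x (7.81 kb, 0.017), a translation initiation helicase, had low scores for short introns, while Ddx60 (101 kb, 0.0293) and Ddx43 (25.6 kb, 0.0723) had high scores for long ones.

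**Figure D2:**
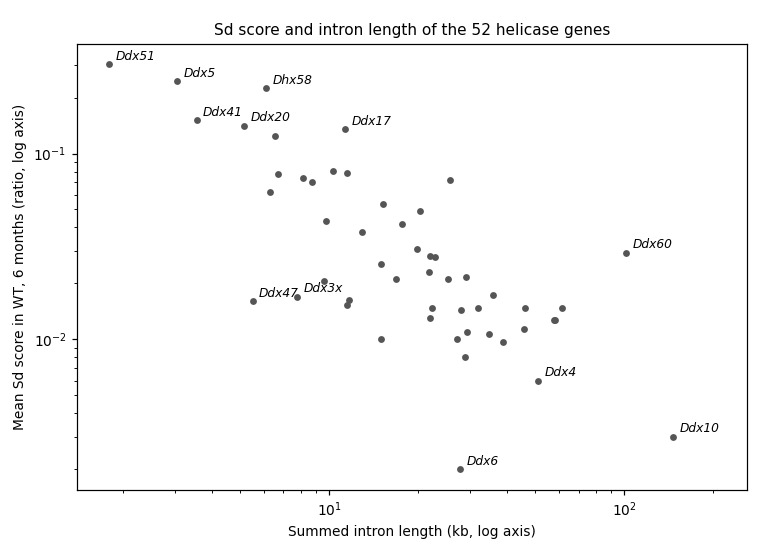
Mean Sd score in WT cortex at 6 months (ratio, log axis, n = 3) against the summed intron length in kb (log axis) for 52 helicase genes, 1 point per gene. The points run from Ddx51 (1.8 kb, 0.302) down to Ddx10 (146 kb, 0.003), with a Spearman correlation of −0.74.

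The N40K effect averaged over 5xFAD status compares the 6 libraries with the N40K transgene with the 6 without it. The state of the U1 snRNP itself was not measured. Of 52 helicase genes 3 rose (Ddx19a, Ddx6 and Dhx32) and 0 fell (limma, adjusted p under 0.05), against 11.7% of all genes called, 10.8% higher and 0.936% lower. An unadjusted p under 0.05 was reached by 14 members (11 higher and 3 lower), against 29.1% of all genes (26% higher and 3.06% lower), a share near this background. The median log2 change was 0.07 over the helicases, with 39 of 52 above 0, and 0.09 over all genes, with 11305 of 15705 above 0.

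These directions depend on a shift of scores over the whole table. Library medians over all genes ran from 0.03 to 0.036 in carriers and from 0.029 to 0.031 in the other libraries. An effect of N40K on most genes and a difference between libraries cannot be told apart here, and centring removes either. After each library was centred on its own median, which lowers every averaged N40K change by 0.14 on the log2 scale, 13 of 52 helicases lay above 0, the median was −0.06, and 1 member rose (Ddx19a) while 3 fell (Ddx41, Ddx25 and Dhx38). When N40K replicate 1 was omitted together with dTg replicate 2, whose medians over all genes were the top pair, 31 of 52 lay above 0, the median was 0.02 and the members called were Ddx19a and Ddx6.

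**Figure D3:**
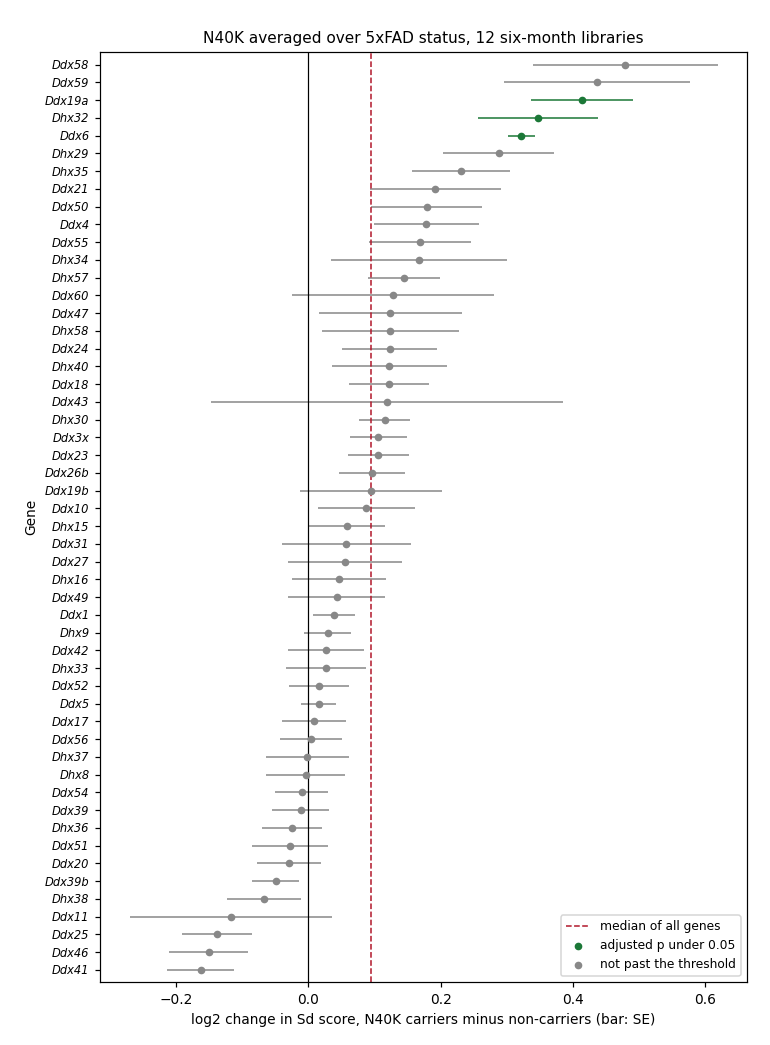
Log2 change in Sd score (points, bars are the SE from limma) of each helicase between 6 N40K carriers and 6 other libraries at 6 months, with the median of all genes as a dashed line. Green points mark Ddx19a, Dhx32 and Ddx6, which passed an adjusted p under 0.05, and changes run from −0.16 in Ddx41 to 0.48 in Ddx58.

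Ddx19a (ENSMUSG00000015023) was the export helicase that changed. Its product, with that of Ddx19b, releases proteins from mRNA on the cytoplasmic side of the nuclear pore. The scores were 0.033, 0.03 and 0.029 in WT, 0.05, 0.037 and 0.041 in N40K, 0.029, 0.031 and 0.026 in 5xFAD, and 0.037, 0.041 and 0.036 in dTg libraries. All 6 carriers lay above all 6 non-carriers. How many of all genes were separate in this way was not counted. The highest value in each carrier group came from a library of highest overall median. The mean rose from 0.0297 ± 0.00234 to 0.0403 ± 0.0052 (SD, n = 6 each), a 1.33-fold change (log2 0.41, SE 0.08, limma adjusted p = 0.0156). Dropping each of the 12 libraries in turn left the call in place (adjusted p from 0.0158 to 0.043).

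None of the other 4 export helicases passed. Ddx19b, its closest relative in the family, had 0.0245 ± 0.00399 with N40K and 0.0227 ± 0.00216 without (1.07-fold, 95% interval of the log2 change −0.15 to 0.34, adjusted p = 0.605). Ddx39 and Ddx39b are near-identical proteins that load export factors onto mRNA, and stood at 0.992-fold (adjusted p = 0.901) and 0.966-fold (adjusted p = 0.396). Ddx25, a helicase best known from testis, was 0.909-fold (adjusted p = 0.116), with 0.009 in all 3 dTg libraries against 0.01 to 0.012 in 5xFAD. In the 5 export genes together 1 rose and 0 fell before centring, and 2 lay above 0. After centring Ddx19a still rose, and Ddx25 passed as lower.

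Ddx6 (ENSMUSG00000032097), a decapping cofactor of processing bodies, had a score of 0.002 in all 6 libraries without N40K and 0.003 in all 6 with it. The groups were separate, but by 1 step of the deposited decimals, and the share of all genes so separated was not counted. With the added constant of 0.002 the difference was 1.25-fold (log2 0.32, limma adjusted p = 6.96e-05). The p is small because no library departed from its group after rounding, and the true spread below 0.001 is unknown. After centring the change was 0.19 (adjusted p = 0.0613).

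Among the other 5 translation and decay genes none passed, and 3 were higher at an unadjusted p under 0.05. Dhx29, which helps the small ribosomal subunit scan structured leaders, had 0.0217 ± 0.00273 against 0.0173 ± 0.00151 (1.22-fold, adjusted p = 0.0554). Dhx57 was 1.11-fold (adjusted p = 0.114) and Ddx3x 1.08-fold (adjusted p = 0.137). Dhx36, which unwinds G-quadruplexes, stood at 0.007 or 0.008 in all 12 libraries. Dhx34, a factor of nonsense-mediated decay, varied from 0.037 to 0.07 with overlapping groups (adjusted p = 0.444). The 6 genes had a median log2 change of 0.16.

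Dhx32 (ENSMUSG00000030986), a DEAH box protein to which no role was assigned here, had 0.013, 0.013 and 0.012 in WT, 0.02, 0.014 and 0.018 in N40K, 0.012, 0.014 and 0.013 in 5xFAD, and 0.014, 0.019 and 0.017 in dTg libraries. The lowest carriers, at 0.014, met the highest non-carrier. Non-carriers averaged 0.0128 ± 0.000753 and carriers 0.017 ± 0.00253 (SD, n = 6 each), and this rise of 1.27-fold had a limma adjusted p of 0.0394. Dropping any single library ended this call in 10 of 12 cases, with the largest adjusted p, 0.0886, when dTg replicate 2 was dropped. The call was also lost after centring (0.0838) and without both libraries named above (0.143). Ddx59, in the same group without a role, had a fold of 1.35 without passing (adjusted p = 0.0758), and Ddx26b was 1.07-fold (adjusted p = 0.233).

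**Figure D4:**
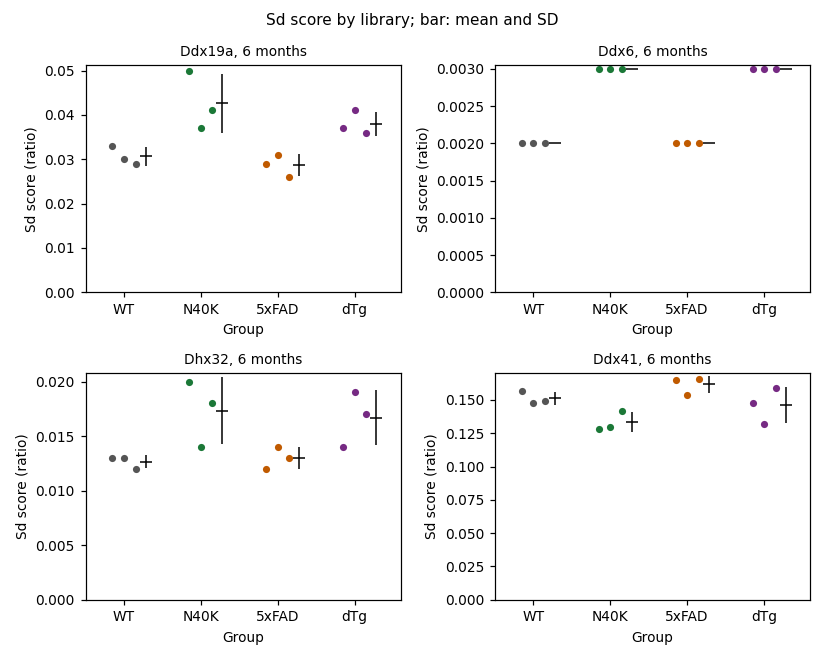
Sd score (ratio) in each of 12 libraries of 6-month cortex for Ddx19a, Ddx6, Dhx32 and Ddx41, by group, with the mean and SD as a bar (n = 3). Carriers of N40K lay above non-carriers in Ddx19a and Ddx6, touched them at 0.014 in Dhx32, and lay lower on average in Ddx41.

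None of the 10 spliceosomal helicases passed, and 2 were higher and 2 lower at an unadjusted p under 0.05. Ddx41 (ENSMUSG00000021494), a component of catalytically active spliceosomes, had 0.157, 0.148 and 0.149 in WT and 0.128, 0.13 and 0.142 in N40K libraries, which did not overlap. In 5xFAD it had 0.165, 0.154 and 0.166 and in dTg 0.148, 0.132 and 0.159, which did. The share of all genes without overlap was not counted. Over all 12 the mean was 0.14 ± 0.0121 with N40K and 0.157 ± 0.00771 without (SD, n = 6 each, 0.893-fold, log2 −0.16, adjusted p = 0.0677). After centring it passed (log2 −0.3, adjusted p = 0.0468), as it did without dTg replicate 3 (adjusted p = 0.0406). In 11 of 12 single omissions it did not pass, with a limma adjusted p of up to 0.14 (without 5xFAD replicate 3).

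The other spliceosomal genes did not pass either. Ddx46 was 0.901-fold (adjusted p = 0.129), Dhx35 1.17-fold (adjusted p = 0.0749) and Ddx23, the helicase that removes U1, 1.08-fold (adjusted p = 0.169). For Ddx23 the scores ran from 0.015 to 0.018 over all libraries, so its range was 3 steps of the last decimal. Dhx15, which takes spent spliceosomes apart, Dhx8, which releases the spliced mRNA, Ddx42, Dhx38, Dhx40 and Dhx16 had adjusted p from 0.385 to 0.998. The group's median log2 change was 0.04, below that of all genes. After centring Dhx38 passed as lower.

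Ddx5 and Ddx17 encode closely related coregulators that shape alternative splicing, and both had high and steady scores at 6 months. Ddx5 was 0.249 ± 0.00508 with N40K and 0.246 ± 0.00538 without (SD, n = 6 each, 95% interval of the log2 change −0.04 to 0.08, adjusted p = 0.753). Ddx17 was 0.142 ± 0.00514 and 0.142 ± 0.0116 (interval −0.1 to 0.12, adjusted p = 0.951). Of the other coregulators, Ddx20, part of the SMN complex that assembles snRNPs, was 0.98-fold, Dhx9 1.02-fold, and Ddx1 stood at 0.01 or 0.011 in all 12 libraries. No coregulator passed even at an unadjusted p under 0.05.

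None of the 16 ribosome biogenesis helicases passed or reached an unadjusted p under 0.05, and 13 lay above 0 before centring. Ddx55 had the smallest p, with 0.0885 ± 0.00914 against 0.0783 ± 0.00582 (1.12-fold, adjusted p = 0.183). The largest change in the group was that of the nucleolar helicase Ddx21 (1.14-fold, adjusted p = 0.23), and the highest score, that of Ddx51, was 0.981-fold. The 1 helicase of mitochondrial ribosome assembly, Dhx30, had 0.0302 ± 0.00172 against 0.0277 ± 0.000816 (1.08-fold, adjusted p = 0.0824), with 0.031 in all 3 dTg libraries. Its change turned to −0.02 after centring. The germline helicases Ddx4 (1.13-fold, adjusted p = 0.172) and Ddx43 (1.09-fold, adjusted p = 0.815) and the DNA helicase Ddx11 (0.922-fold, adjusted p = 0.663) did not pass.

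Single contrasts gave 1 member each, and it was Ddx6 in all 3. N40K minus WT called 0.178% of all genes (18.9% at an unadjusted p under 0.05, against 10 of 52 helicases), dTg minus 5xFAD 0.312% (18% unadjusted, against 5 of 52) and dTg minus WT 1.57% (22.5% unadjusted, against 9 of 52). N40K minus WT and dTg minus WT share the WT libraries. The Ddx6 call was lost in all 3 after centring, and in the first 2 with an added constant of 0.01. Ddx19a was 1.36-fold in N40K minus WT (adjusted p = 0.0865), 1.31-fold in dTg minus 5xFAD (adjusted p = 0.126) and 1.22-fold in dTg minus WT (adjusted p = 0.158). Its libraries were separate in each, but how many of all genes were separate was not counted.

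Across the helicases the N40K change tended to be larger in genes with longer introns, with a Spearman correlation of 0.39 over 52 genes against 0.24 over all genes. The change and the mean score had a correlation of −0.25 over the helicases and −0.13 over all genes. These are descriptions across genes that share the same 12 libraries.

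The helicases that sense viral RNA include Dhx58 and Ddx58, the members with the lowest p in the averaged 5xFAD comparison and the largest differences in the tau comparison. RIG-I, encoded by Ddx58, binds the ends of foreign RNA and signals for interferon, LGP2, encoded by Dhx58, modulates that signal, and Ddx60 is induced by interferon. Interferon-stimulated genes carry a response element in their promoters, and the motif GAAANNGAAA (either strand) was searched for from 250 bases before to 50 bases after each start site in RefSeq's promoter table (GRCm38.p6). Of the 52 members 45 had at least 1 window, and 3 of these genes held the motif: Ddx58, Ddx60 and Ddx49. Counted by window, 4 of the 56 windows of members held it, beside 3.44% of all 32851 windows. Dhx58 had no window.

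The stretches with the motif are shown because Ddx58 and Ddx60 are the sensors described next. Both are written 5′ to 3′ on the gene's strand, with matches in capitals. Ddx58 (GRCm38.p6 chr4:40239814-40239963, minus strand) has 1 match in the reverse orientation, TTTCNNTTTC, that begins 3 bases into the transcript. Ddx60 (GRCm38.p6 chr8:61927949-61928098, plus strand) has 2 matches, which begin 53 and 19 bases before the start site. A match is a description of the letters and not a site of binding.
Ddx58: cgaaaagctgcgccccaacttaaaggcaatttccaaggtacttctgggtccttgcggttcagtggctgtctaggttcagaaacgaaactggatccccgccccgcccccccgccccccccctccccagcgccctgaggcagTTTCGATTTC
Ddx60: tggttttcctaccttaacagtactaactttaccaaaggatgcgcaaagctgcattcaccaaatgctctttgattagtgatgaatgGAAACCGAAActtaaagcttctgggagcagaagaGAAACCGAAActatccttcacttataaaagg

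The 5xFAD comparisons ask what the amyloid transgenes did to the score. No helicase passed in 5xFAD minus WT (limma, 0.0191% of all genes called) or in the 5xFAD effect averaged over N40K status (0.0446% of all genes called). At an unadjusted p under 0.05 there were 2 of 52 members in each, against 4.39% and 6.17% of all genes. In 5xFAD minus WT these were Dhx58 (0.793-fold) and Ddx56 (1.13-fold), and in the averaged effect Dhx58 and Ddx58. The median log2 change of the averaged effect was 0.01 over the helicases and 0.01 over all genes.

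Dhx58 (ENSMUSG00000017830) had 0.231, 0.222 and 0.221 in WT, 0.273, 0.292 and 0.254 in N40K, 0.209, 0.163 and 0.165 in 5xFAD, and 0.154, 0.223 and 0.154 in dTg libraries. All 3 N40K libraries lay above WT and all 3 5xFAD libraries below it, and of the dTg libraries replicate 2 met the WT range. The share of all genes separated in either way was not counted. With amyloid transgenes the mean was 0.178 ± 0.0301, and without them 0.249 ± 0.0293 (SD, n = 6 each, 0.714-fold, log2 −0.49, SE 0.1). The unadjusted limma p was 0.0011 and the adjusted p 0.227, with adjusted p from 0.0531 to 0.457 when single libraries were dropped.

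Ddx58 (ENSMUSG00000040296) had 0.025, 0.02 and 0.02 in WT, 0.038, 0.032 and 0.034 in N40K, 0.025, 0.015 and 0.016 in 5xFAD, and 0.02, 0.03 and 0.021 in dTg libraries. Here too the N40K group lay highest and apart from WT (1.55-fold, adjusted p = 0.138), and the 5xFAD and dTg groups overlapped with WT. Again the share of all genes with N40K apart from WT was not counted. The averaged 5xFAD effect was 0.77-fold (adjusted p = 0.672) and the averaged N40K effect 1.39-fold (0.0292 ± 0.00722 against 0.0202 ± 0.00426, adjusted p = 0.0561). The averaged N40K effect on Ddx58 did not pass in 10 of 12 single omissions, with a limma adjusted p of up to 0.123 (without 5xFAD replicate 3). It passed without 5xFAD replicate 1 (adjusted p = 0.0299) and without dTg replicate 1 (adjusted p = 0.0481). Ddx60 had overlapping groups, with 0.848-fold for 5xFAD (adjusted p = 0.934) and 1.09-fold for N40K (adjusted p = 0.629).

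Outside the sensors the 5xFAD changes were small. The smallest p of each other role belonged to Ddx41 (1.08-fold, adjusted p = 0.797), Ddx3x (1.06-fold, 0.85), Ddx56 (1.06-fold, 0.866), Ddx19a (0.919-fold, 0.925), Ddx4 (0.924-fold, 0.948), Ddx26b (0.957-fold, 0.968), Ddx17 (1.04-fold, 0.969), Dhx30 (1.03-fold, 0.985) and Ddx11 (0.979-fold, 1), all adjusted p from limma. Ddx41 was thus higher with the amyloid transgenes and lower with N40K, below the threshold in either case. The interaction of N40K and 5xFAD called 0 of 52 helicases (limma, 0.0191% of all genes), and 1 reached an unadjusted p under 0.05 (Ddx26b, log2 −0.27, adjusted p = 1), against 2.87% of all genes. For Ddx58 and Dhx58 the interaction was −0.31 in each, with adjusted p = 1.

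Tau P301S minus WT at 12 months called 0 of 51 helicases (limma, 0.00658% of all genes). At an unadjusted p under 0.05 there were 5, all lower in Tau P301S, against 8.28% of all genes (2.53% higher and 5.75% lower, so the whole table leaned the same way). These were Ddx58, Dhx58, Ddx46, Dhx37 and Ddx55. The median log2 change was −0.0044 over the helicases, with 27 of 51 below 0, and −0.02 over all genes.

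Ddx58 had the largest difference. WT libraries had 0.067, 0.068, 0.045 and 0.033, and the 6 Tau P301S libraries ran from 0.012 through a median of 0.025 to 0.034. WT replicate 4, at 0.033, lay within the Tau P301S range and the other 3 above it. The 2 WT libraries with the highest Ddx58 scores, replicates 1 and 2, were those with the lowest medians over all genes, and the part of that difference was not tested. The means were 0.0532 ± 0.0172 (SD, n = 4) and 0.0248 ± 0.00845 (SD, n = 6), a 0.482-fold difference (log2 −1.05, SE 0.3, adjusted p = 0.403). After centring the change was −1.03.

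Dhx58 had 0.091, 0.082, 0.123 and 0.103 in WT libraries, while Tau P301S ran from 0.038 through a median of 0.0695 to 0.083. Tau P301S replicate 2, at 0.083, lay above the lowest WT value, and the other 5 lay below all WT libraries. The means were 0.0998 ± 0.0177 (SD, n = 4) and 0.066 ± 0.017 (SD, n = 6), a 0.655-fold difference (adjusted p = 0.51). Ddx60 was 0.917-fold (adjusted p = 0.865), with 0.008 to 0.015 in Tau P301S and 0.012 to 0.014 in WT libraries. All 3 sensors lay below 0 in the tau and in the averaged 5xFAD comparison. Of all genes, 8183 of 15192 and 6758 of 15705 did so. In the averaged N40K comparison all 3 lay above 0, as did 11305 of 15705 genes, with Dhx58 and Ddx60 below 0 after the shift of centring. Ddx58 and Dhx58 were singled out by the tau and 5xFAD comparisons, so their signs there are no separate result. None of the 3 passed the threshold in any of these comparisons. Ifih1, which encodes MDA5, the remaining receptor of the RIG-I family, was 0.984-fold in Tau P301S and 0.986-fold with 5xFAD (adjusted p = 1 in each). Low scores in Tau P301S were not limited to the sensors. Mov10, a helicase outside the symbol rule, had 0.103 ± 0.0392 in Tau P301S and 0.214 ± 0.0721 in WT (SD). Dicer1 went the other way, with 0.19 ± 0.0426 and 0.137 ± 0.0199. Of the 18 measured helicases outside the rule, 10 lay above 0, 8 below and none passed.

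**Figure D5:**
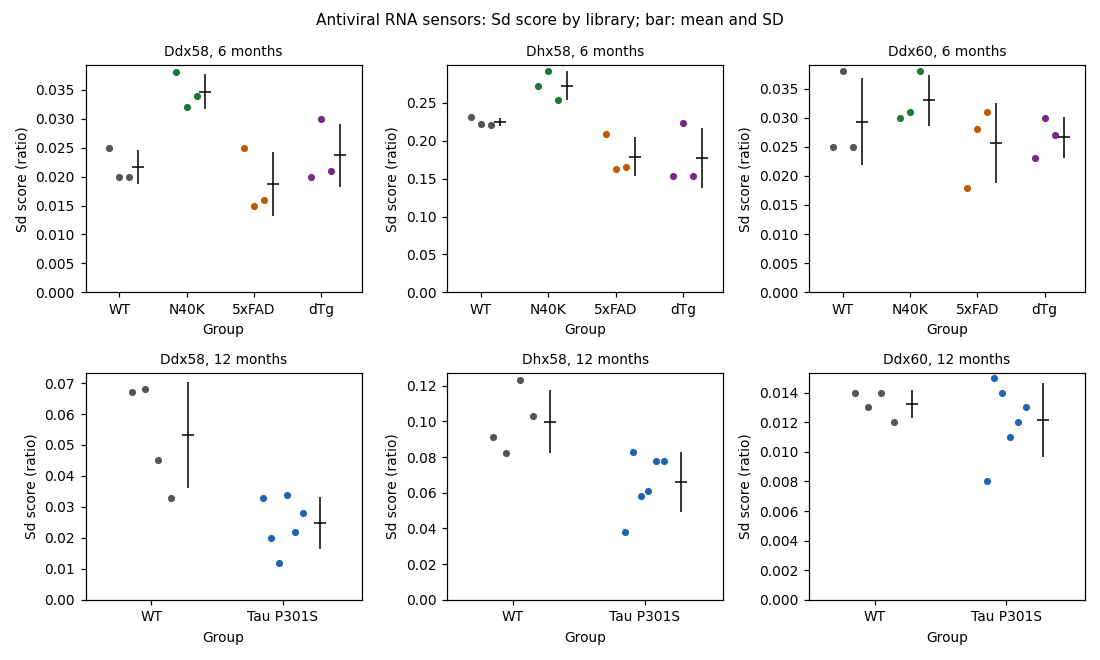
Sd score (ratio) of Ddx58, Dhx58 and Ddx60 in each library, with 6-month groups above (n = 3 each) and 12-month groups below (WT n = 4, Tau P301S n = 6), and bars for the mean and SD. Dhx58 is highest in N40K (0.254 to 0.292) at 6 months, and Ddx58 and Dhx58 lie lower in most Tau P301S than WT libraries at 12 months.

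Elsewhere the tau differences were of smaller size. Ddx46 had 0.00833 ± 0.000816 in Tau P301S and 0.0103 ± 0.00126 in WT (0.844-fold, adjusted p = 0.493), Dhx37, a small-subunit ribosome biogenesis factor, was 0.893-fold (adjusted p = 0.558) and Ddx55 0.86-fold (adjusted p = 0.596). Ddx19a was 0.832-fold (adjusted p = 0.596) and Ddx20 0.851-fold (adjusted p = 0.605), while Ddx26b was 1.22-fold (adjusted p = 0.6). The smallest p of the other roles belonged to Dhx34 (0.821-fold, adjusted p = 0.73), Ddx11 (1.2-fold, 0.82), Ddx4 (1.13-fold, 0.883) and Dhx30 (1.02-fold, 0.926). Dhx15 was listed at 0.002 in all 10 libraries, and Ddx41 (0.112 to 0.119) and Ddx5 (0.122 to 0.137) were steady as well.

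The 6-month and 12-month tables were made from separate experiments, so age, batch and processing cannot be told apart, and WT levels are given side by side without a test. The order of the 51 shared helicases was alike, with a Spearman correlation of 0.85 and a Pearson correlation of 0.85 on the log2 scale. Of these, 37 had a lower WT mean at 12 months and 14 a higher one, with a median ratio of 0.75. Over all genes of each table the WT median was 0.0297 at 6 months and 0.0153 at 12 months, and over the helicases 0.0213 and 0.0185.

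Some genes changed place. Dhx15 had 0.0147 at 6 months and 0.002 at 12 months, 7.33-fold lower, and Ddx17 0.135 and 0.0227, 5.93-fold lower. Its relative Ddx5 went from 0.245 to 0.13. In the other direction Ddx6 stood at 0.002 and 0.008, Ddx58 at 0.0217 and 0.0532 and Ddx26b at 0.0113 and 0.0248. Under its older symbol, Ddx39b had 0.027 to 0.031 in WT and 0.027 to 0.033 in Tau P301S libraries, against 0.072 to 0.076 in WT at 6 months. At 12 months the 3 highest WT means were those of Ddx51 (0.385 ± 0.0113, SD, n = 4), Ddx20 (0.131 ± 0.0148) and Ddx5 (0.13 ± 0.0034), of which the last 2 overlapped. The 3 lowest were Ddx10 (0.00175 ± 0.0005), Dhx15 (0.002 in all) and Ddx25 (0.004 ± 0.000816), with 4 members above 0.1 (7.84%, against 14% of all genes) and 12 below 0.01 (23.5%, against 39%).

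Other RNA helicases outside the symbol rule and the G-patch proteins, several of which activate DEAH box helicases, were counted in the averaged N40K effect as well. Of 18 measured other helicases 2 rose and 0 fell. Helz had 0.00983 ± 0.000983 in carriers against 0.00717 ± 0.000753 in the rest (SD, n = 6 each), a 1.29-fold rise (adjusted p = 0.018). Ascc3, of the complex that resolves stalled ribosomes, was 1.16-fold (adjusted p = 0.02), from 0.003 in all 6 non-carriers to 0.003 or 0.004. As in Ddx6, this is 1 step of the deposited decimals, and the spread hidden by rounding is unknown. Of 18 measured G-patch proteins 4 rose and 0 fell. These were Pinx1 (1.38-fold, adjusted p = 0.0297), a telomerase inhibitor, Gpatch2 (1.24-fold, adjusted p = 0.038), Gpatch8 (1.17-fold, adjusted p = 0.0426) and Son (1.16-fold, adjusted p = 0.0317), a nuclear speckle protein. The libraries were separate in Helz, Pinx1, Gpatch2 and Son, and the share of all genes with such a separation was not counted. Neither list had a member past the threshold in any of the other 7 comparisons (limma), and the share called, 2 of 18 and 4 of 18, stands beside 11.7% of all genes. The calls of both lists rest on scores that were not centred, and the alternative settings were not applied to them.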

How the data were processed

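The authors deposited 1 Sd score for each gene in each library, a ratio on a linear scale with 3 decimals. Per the submitters' processing notes, CASAVA, STAR, BWA and bedtools 2.16.1 were used with the mm9 build. The formula, counter and annotation are not given in the sources used here. Scores were analysed as log2(score + 0.002), the constant being the 5th percentile of values above 0, so folds include it and understate changes of low scores. Libraries were not recentred. limma 3.58.1 (R 4.3.3) fitted 1 term per group over all libraries of a table, without a replicate block, leaving 8 residual degrees of freedom (prior 1.2 at 6 months and 1.11 at 12 months). Two-sided p-values were Benjamini-Hochberg adjusted over all genes, with a threshold of 0.05. The fit was tested on simulated data that had no shift between libraries and no rounding to 3 decimals, so that test covers neither. The members and lists were chosen with earlier results of these data known. Named genes are those called in any comparison, the smallest p per role in the averaged N40K, averaged 5xFAD and tau comparisons, the 3 highest and 3 lowest scores per table, close relatives, and called genes of the 2 related lists. Others were chosen after their values were seen. Alternatives were another constant (0.001 or 0.01), median-centring, a trend in eBayes, a replicate block, a mean score of at least 0.02, and omitted libraries.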

Additional observations from a re-analysis of the deposited data

Results flagged for a closer look

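Dixon's test flags about 1 in 20 groups by chance where values are normally distributed and not rounded. Its rate for these rounded scores is not known. The 51 helicases at 12 months gave 102 groups of 4 or 6 libraries. In 8 of these the lowest or highest library stood apart from the rest by this test. In Tau P301S these were Ddx51 in replicate 4 (0.418, the others 0.354 to 0.369), Ddx6 in replicate 4 (0.011, the others 0.007 or 0.008), Dhx30 in replicate 2 (0.049, the others 0.042 to 0.044), Dhx34 in replicate 2 (0.037, the others 0.022 to 0.027) and Ddx1 in replicate 2 (0.009, the others 0.008). In WT they were Dhx30 in replicate 3 (0.044, the others 0.043), Dhx29 in replicate 1 (0.005, the others 0.006) and Ddx10 in replicate 2 (0.001, the others 0.002). In Ddx1, Dhx29, Ddx10 and the WT value of Dhx30 the gap was 0.001, the last decimal deposited. The other libraries of those groups were identical, so a single step was enough for the flag.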

How the results depend on the processing

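The number of helicases called in the averaged N40K effect was 3, and 1 with a mean score of at least 0.02, a filter that removes 23 of the 52 members, Ddx6 and Dhx32 among them. It ranged from 2 to 5 over single libraries left out (5 without dTg replicate 1). With a replicate block it was 3 (Ddx19a, Ddx59 and Ddx6). Over 18 same-numbered pairs of 6-month libraries the deviations from group means correlated between −0.2 and 0.07, and over 4 such 12-month pairs between −0.27 and 0.19. Differently numbered pairs ran from −0.14 to 0.16 and from −0.24 to 0.32. Same-numbered libraries were thus not more alike by this measure. Whether equal numbers mark a shared litter or batch was not tested. The count of all genes called in the averaged N40K effect was 1838. It was 1241 after centring, 889 with the replicate block, 832 with the filter and 749 without N40K replicate 1 and dTg replicate 2. Over single omissions it was 813 to 2352. N40K minus WT and dTg minus 5xFAD went from 1 to 0 with a constant of 0.01, after centring and with a mean score of at least 0.02, and dTg minus WT from 1 to 0 under the last 2. In all, 139 of 149 alternative counts stayed within 1.5 times the reported one. These include the 5xFAD, interaction and tau comparisons, where the reported count was 0. The tally compares numbers and not members or directions. After centring, the averaged N40K effect called 1 member higher and 3 lower, which is within 1.5 times. Of 584 alternative values for 33 named changes, 553 kept their direction and side of the threshold, 19 lost a call, 4 gained one and 8 lost or turned their direction. The log2 change turned to −0.0198 for Dhx30 and −0.0968 for Ddx1 in the averaged N40K effect after centring, and for Ddx1 to 0 without N40K replicate 1 and dTg replicate 2. That of Ddx11 with 5xFAD turned to 0.183 without both and ranged from −0.0998 to 0.109 over single omissions (0.0441 without dTg replicate 2). In Tau P301S, Ddx4 turned to −0.038 with a replicate block, and Dhx30 ranged from −0.00173 to 0.0409 over single omissions. The causes were not tested. Depth per library is unknown, and 44.2% of members at 6 months and 54.9% at 12 months had a mean below 0.02, where 1 decimal step is at least 5% of the score.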
